A study of Mus musculus with 4 samples.

Results

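The Tcf/Lef transcription factors, the feedback genes of the Wnt pathway and *Ctnnb1* were compared between 2 subpopulations of bone marrow cells, SOX7::GFP high and SOX7::GFP low. The list holds 10 genes, *Tcf7*, *Lef1*, *Tcf7l1*, *Tcf7l2*, *Axin2*, *Lgr5*, *Nkd1*, *Rnf43*, *Znrf3* and *Ctnnb1*, out of 22378 gene names on the array. They were chosen by their role in the pathway, with the large difference of *Lef1* between these arrays already known. Probe sets were then selected on their level. A probe set is a small group of array probes, mostly within 1 exon, and it was used where it carried 1 gene symbol and its second-highest value over the 4 arrays was 5.04 or more on the log2 scale. Of the 10 genes, 9 had probe sets named singly, 203 in all, and each of the 9 kept at least 5, 145 in all. No probe set was named singly for *Tcf7l1*. Just outside the threshold lay probe sets of *Nkd1*, *Axin2* and *Lgr5* with second-highest values of 4.94, 4.99 and 5.02. Just inside lay probe sets of *Lgr5*, *Nkd1* and *Tcf7l2* with 5.12, 5.17 and 5.19.

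The cells came from the bone marrow of *iSox7* mice, whose transgene expresses SOX7 together with GFP when doxycycline is given. The labels also name the Ainv18 embryonic stem cell line as the source of the line, and give no age of the mice. All cells were grown on irradiated OP9, a mouse bone marrow stromal line, with Kit ligand, Interleukin-7 and FLT3. After 10 to 12 passages they were sorted by SOX7::GFP and cKIT level into a SOX7::GFP high and a SOX7::GFP low fraction, and each was hybridized to 2 mouse exon arrays. The arrays are grouped here by the SOX7 level in the sample labels, although the series' own design note sets doxycycline against none. The study describes both fractions within the cultures given doxycycline, and calls the arrays of a fraction biological duplicates. Whether the duplicates were separate cultures or animals is not given in the sources used here, so the p-values may measure a technical spread between these 4 arrays.

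Over all genes, 2 arrays of a group correlated at 0.961 for SOX7::GFP high and 0.958 for SOX7::GFP low, against 0.859 to 0.865 between groups. A gene was called when limma, fitted over all 18883 genes that passed the filter, gave both a p under 0.05 after Benjamini-Hochberg adjustment and at least a 2-fold difference. This called 1301 genes, 686 higher and 615 lower in SOX7::GFP high cells. *Sox7* itself, the induced gene, had values of 9.52 and 9.63 on the SOX7::GFP high arrays and of 9.07 and 8.90 on the SOX7::GFP low arrays. The groups were apart, but the difference of 0.59 was not called (limma, adjusted p = 0.0865). Of 6 general blood cell markers, such as *Ptprc* and *Coro1a*, none was called (0 of 6), and the same held for 11 measured stromal genes (0 of 11). Of all genes 6.89% were called.

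Wnt ligands bind Frizzled receptors and their LRP co-receptors at the cell surface. Without a ligand, a complex built on Axin and APC marks β-catenin, the product of *Ctnnb1*, for destruction. With a ligand, β-catenin is spared, enters the nucleus and binds the Tcf/Lef factors, which sit on DNA through an HMG box and otherwise act with Groucho/TLE co-repressors. SOX7 carries an HMG box of the same family. *Axin2*, *Nkd1*, *Rnf43* and *Znrf3* are target genes of the pathway in many tissues, and their products dampen it. *Lgr5* is another target gene, whose product is a receptor for R-spondins. In blood, *Tcf7* is known for early T cells and innate lymphoid cells, and *Lef1* for B-cell and T-cell precursors.

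A DNA word of Tcf/Lef factors and a related word of Sox factors were looked for in the promoters of these genes. The cells were sorted on SOX7 and differ in Tcf/Lef factors. The 250 bases before each RefSeq transcript start of the GRCm38.p6 assembly were searched on both strands. The Tcf/Lef word was CAAAG after 2 bases that are each A or T, a form that the wider Sox motif also takes in. The word counted for Sox alone was CAATG after 2 such bases. Of 15 windows of 8 of the genes, 2 held a Tcf/Lef word (13.3%), beside 14.8% of 32851 windows of all genes. A Sox word was in 1 of the 15 (6.67%), beside 8.34% of all windows. The 3 matches are shown on the forward strand with 10 bases on either side, the motif in capitals, for *Lef1* at chr3:131156137-131156163 (+), 147 bases before an internal start, and for *Tcf7l2* at chr19:55895297-55895323 (+), 14 bases before a start, and chr19:55741697-55741723 (+), 103 bases before another. The fourth sequence is the window before the first start of *Lef1*, at chr3:131110047-131110296 (+), shown because *Lef1* carries the largest fall of these genes. It holds neither motif in these 250 bases and is 66.4% G and C. A match is a description of the letters and not a binding site.
*Lef1*, Tcf/Lef word: aacctcagaaTACAAAGtaggattgca
*Tcf7l2*, Tcf/Lef word on the reverse strand: aaatatcaggCTTTGTTcttttgattg
*Tcf7l2*, Sox word on the reverse strand: cccaaaggatCATTGTTggccgccccc
*Lef1*, before the first start: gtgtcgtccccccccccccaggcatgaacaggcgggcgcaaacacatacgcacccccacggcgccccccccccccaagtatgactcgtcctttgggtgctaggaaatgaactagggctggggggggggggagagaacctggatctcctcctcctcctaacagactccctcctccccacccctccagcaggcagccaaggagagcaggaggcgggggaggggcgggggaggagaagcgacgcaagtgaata

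The most marked contrast lay within the Tcf/Lef family, whose members went in opposite directions. *Tcf7* was about 15.9-fold higher in SOX7::GFP high cells, while *Lef1* was about 15.4-fold lower and *Tcf7l2* about 2.51-fold lower. Among the feedback genes, *Axin2* was higher and *Lgr5* lower, and *Nkd1*, *Rnf43* and *Znrf3* did not pass. Of the 9 genes measured, 2 were called higher and 3 lower, beside 6.89% of all genes called in either direction, 3.63% higher and 3.26% lower. The 2 groups of arrays did not overlap in 8 of the 9, as in 54.4% of all genes. The median log2 fold change was -0.04 beside 0.05 over all genes. As the list was drawn up with results of these arrays known, these counts are a description.

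**Figure D1:**
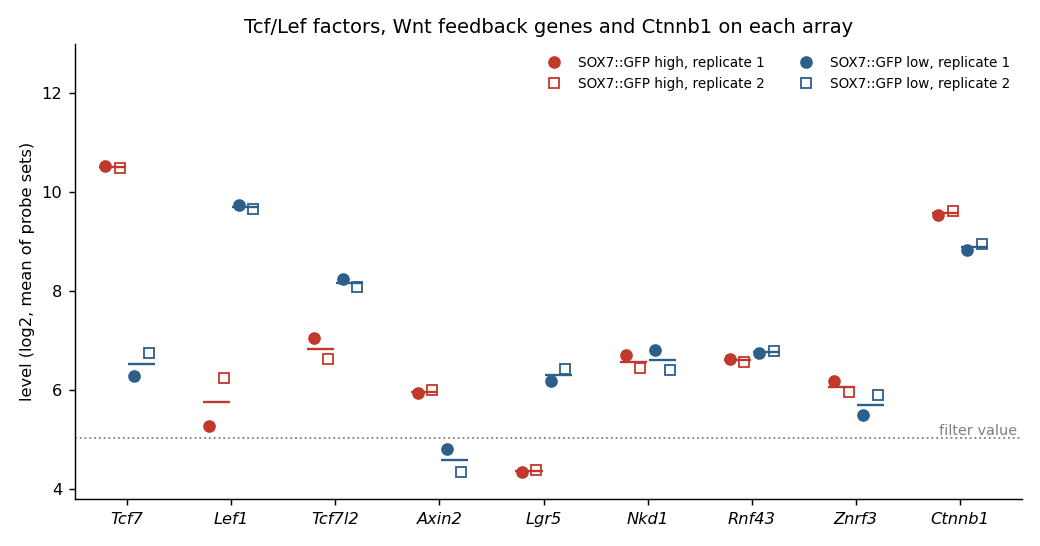
Level of each gene on each array (log2, mean of its probe sets that passed the filter). Red marks SOX7::GFP high and blue SOX7::GFP low, filled circles replicate 1 and open squares replicate 2, bars the group means of 2 arrays and the dotted line the filter value of 5.04. *Tcf7* lies above 10 on both SOX7::GFP high arrays and *Lef1* above 9 on both SOX7::GFP low arrays, while the symbols of *Nkd1* overlap.

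*Tcf7* had values of 10.53 and 10.50 on the SOX7::GFP high arrays and of 6.29 and 6.75 on the SOX7::GFP low arrays. Both high arrays lay far above both low arrays and were almost equal to each other. Its log2 fold change was 3.99 (standard error 0.20, 95% interval 3.47 to 4.51 from limma), a fold of 15.9 (95% interval 11.1 to 22.8). In bulk RNA such as this, fewer cells that express a gene and less RNA per cell cannot be told apart. All 19 probe sets of *Tcf7* passed the filter, 2 of them only through the SOX7::GFP high arrays.

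The probe sets of *Tcf7* did not all move alike. On SOX7::GFP high replicate 1 they ran from 5.90 to 12.6 with a median of 11.6, and on replicate 2 from 6.88 to 12.5 with a median of 11.6. On SOX7::GFP low replicate 1 they ran from 3.24 to 8.52 with a median of 6.51, and on replicate 2 from 2.18 to 8.67 with a median of 6.95. All 19 differences between the group means were above 0, from 0.03 to 5.51 with a median of 4.52. For the 2 that passed only through the SOX7::GFP high arrays, the filter fixes this direction. Fitted 1 by 1 over 191615 probe sets, of which 4.02% were called in either direction and 2.25% higher, 16 of the 19 *Tcf7* probe sets were called higher, with differences of 3.40 to 5.51. Probe set 4340655 had the widest difference, with 11.84 and 11.64 on the SOX7::GFP high arrays and 5.96 and 6.51 on the SOX7::GFP low arrays. Probe set 4683127 was bright only in SOX7::GFP high cells, with 7.24 and 7.42 against 3.24 and 2.18.

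The 3 *Tcf7* probe sets that were not called include 2 that were flat. Probe set 5028709 had 7.84 and 7.72 in SOX7::GFP high cells and 7.71 and 7.72 in SOX7::GFP low cells, a log2 difference of 0.07 (95% interval -0.44 to 0.58). Probe set 5386537 had 5.90 and 6.88 against 6.40 and 6.32, the only 1 of the 19 whose groups overlapped. Its log2 difference was 0.03 (95% interval -0.95 to 1.01). Both probe sets were above the filter value on all 4 arrays. The third, 5296197, had 7.13 and 7.78 against 3.99 and 5.45, a log2 difference of 2.74 (adjusted p = 0.0793 from limma). The files used here do not say which exon a probe set lies in.

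*Lef1* went the other way. Its values were 5.27 and 6.25 on the SOX7::GFP high arrays and 9.74 and 9.67 on the SOX7::GFP low arrays. The low arrays were alike and lay far above both high arrays, which differed from each other by 0.99. This gave a log2 fold change of -3.94 (standard error 0.35, 95% interval -4.84 to -3.04 from limma). Of 29 probe sets 26 passed the filter, 6 of them only through the SOX7::GFP low arrays. The 3 that did not pass had second-highest values of up to 4.82 and differences of -3.15 to -2.29.

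All 26 *Lef1* probe sets were lower in SOX7::GFP high cells with no overlap between groups, as was the case, in either direction, for 51.5% of all probe sets. Their log2 differences ran from -5.48 to -1.67 with a median of -4.23, and 21 of the 26 were called lower, beside 1.77% of all probe sets. For the 6 that passed only through the SOX7::GFP low arrays, the filter itself fixes the direction and the lack of overlap. Among those that did not pass, probe sets 4500947 and 5230210 had overlapping groups. The widest difference was that of probe set 5403785, with 4.90 and 3.81 on the SOX7::GFP high arrays against 9.93 and 9.74 on the SOX7::GFP low arrays. The narrowest was that of 4894810, with 5.98 and 6.44 against 7.97 and 7.79. Unlike *Tcf7*, *Lef1* had no flat probe set among the 26 that passed the filter. In 22 of the 26, SOX7::GFP high replicate 2 was brighter than replicate 1. The 5 that were not called had differences of -4.88 to -3.04. Probe set 5322729, for example, had 5.28 and 7.88 against 11.6 and 11.3. With either SOX7::GFP high array left out no probe set of any gene was called (0 of 191615). With SOX7::GFP low replicate 1 left out, 16 probe sets of *Tcf7* and 6 of *Lef1* were called, beside 0.867% of all probe sets, and with SOX7::GFP low replicate 2 left out again 16 and 6, beside 1.07%. As means over their probe sets, *Tcf7* and *Lef1* were called with any 1 of the 4 arrays left out.

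**Figure D2:**
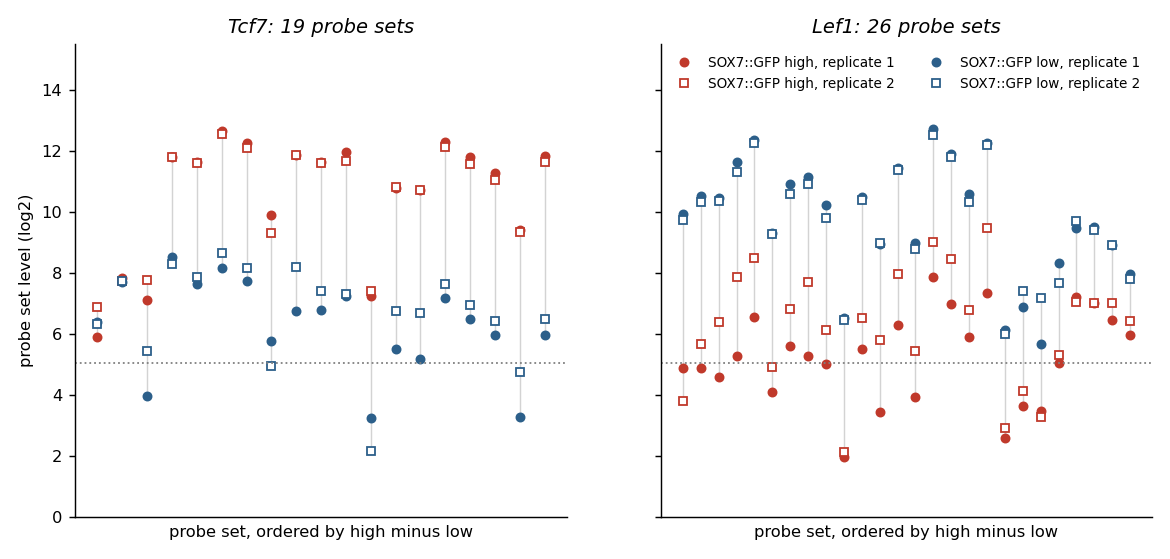
Level (log2) of each probe set of *Tcf7* (19) and *Lef1* (26) that passed the filter, on the 4 arrays, ordered within each gene by the difference between groups. A grey line joins the lowest and highest array of a probe set and the dotted line is the filter value of 5.04. The first 2 probe sets of *Tcf7* are flat, whereas all 26 of *Lef1* have both blue symbols above both red ones.

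Markers of blood lineages moved in the same arrays. Of 11 measured B-lineage genes 10 were called lower in SOX7::GFP high cells, with a median log2 fold change of -4.46 over the list. The gene not called, *Bank1*, went the other way, with a log2 fold change of 0.62 (limma, adjusted p = 0.145) and 13 of 14 probe sets higher. Some probe sets passed the filter only through the SOX7::GFP low arrays. These were 5 of 25 for *Ebf1*, 2 of 10 for *Pax5*, 1 of 7 for *Cd79a*, 2 of 23 for *Blnk*, 2 of 7 for *Rag1* and 3 of 5 for *Rag2*. The summed level of the list on the log2 scale was 9.32 and 10.7 on the SOX7::GFP high arrays and 14.3 and 14.2 on the SOX7::GFP low arrays. SOX7::GFP high replicate 2 was above replicate 1 in 9 of these 11 genes, and the share over all genes was not counted. *Pax5*, the factor that commits cells to the B lineage, had 5.37 and 6.17 against 9.88 and 9.72. With 1 array left out, 4 to 9 of the B-lineage genes were called lower, 4 when SOX7::GFP low replicate 1 was dropped and 5 when SOX7::GFP low replicate 2 was. The part of B-lineage cells in the *Lef1* result was not tested.

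Beside the rise of *Tcf7*, 3 of 13 measured T-lineage genes were called higher, where 3.63% of all genes were. The 3 were *Cd28* (log2 fold change 1.56), the adaptor gene *Lat* (2.01) and *Gata3* (1.85). Of the 10 *Gata3* probe sets that passed the filter, 5 passed only through the SOX7::GFP high arrays, and 1 was called. The genes of the T-cell receptor complex *Cd3d*, *Cd3e* and *Cd247* were not called, and *Cd3g* had no probe set over the filter. The list's summed level was 10.6 and 10.5 against 10.1 and 9.95 on the log2 scale. With 1 array left out 0 to 2 of the T-lineage genes were called, none (0) when this was SOX7::GFP high replicate 1 or the second SOX7::GFP low array. Of 11 measured genes of NK cells and innate lymphoid cells, 2 were called higher and 2 lower, beside 3.63% and 3.26% of all genes. Higher were the granzyme gene *Gzmb* (4.26) and *Rora* (2.29), and lower the receptor genes *Klrd1* (-2.85) and *Klrb1c* (-1.33). Some of their probe sets passed the filter only through the group where the gene is higher. These were 2 of 9 for *Gzmb*, 9 of 20 for *Rora*, 4 of 7 for *Klrd1* and 1 of 2 for *Klrb1c*. The summed level of these NK and innate lymphoid genes was 11.4 and 11.4 against 9.74 and 9.83. *Gzmb*, with 10.88 and 10.92 against 6.41 and 6.86, weighs most in that sum. The median log2 fold change of the list was -0.18, and its mean level was 6.08 and 6.33 against 6.14 and 6.18. The part of such cells in the *Tcf7* result was not tested.

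Of the other lineages, 4 of 8 listed mast cell genes were called higher, beside 3.63% of all genes. Among them were *Cpa3* (3.20) and *Gata2* (2.57). The study names *Gata2* as a stem and progenitor gene. *Ms4a2*, *Tpsb2*, *Cma1* and *Hdc* were not called. The mast cell list had a summed level of 12.8 and 12.2 against 10.4 and 10.0 on the log2 scale. Of 7 megakaryocyte genes 5 were called higher, beside the same 3.63% of all genes. Among them were *Itga2b* (2.40) and *Pf4* (2.35), and the list's summed level was 10.5 and 10.9 against 8.53 and 8.98. Without SOX7::GFP high replicate 1 no megakaryocyte gene was called (0), and 2 were without SOX7::GFP high replicate 2. Of 11 granulocyte and macrophage genes 3 were called lower, *Ltf*, *Camp* and *Lcn2*, beside 3.26% of all genes. Of 5 erythroid genes none was called (0). For *Ltf*, 12 of the 21 probe sets that passed the filter did so only through the SOX7::GFP low arrays. With replicate 2 of either group left out, 2 of the granulocyte and macrophage genes were called lower, and with either SOX7::GFP low array left out 2 of the mast cell genes were called higher. The part of these cells in the values of the Wnt genes was not tested either.

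The genes whose values over the 4 arrays, centred on their own mean, lay nearest to *Lef1* by Euclidean distance were *Gfra2* (0.11), *BC023105* (0.14), *Pax5* (0.17), *Mzb1* (0.23) and *Rras2* (0.23). Each repeats the higher value of SOX7::GFP high replicate 2 over replicate 1, which follows from their being picked for the pattern of *Lef1*. *Gfra2*, for example, had 5.06 and 6.06 against 9.54 and 9.35. Nearest to *Tcf7* were *Tspan18* (0.18), *Pdyn* (0.26), *Cd160* (0.27), *Gzmb* (0.28) and *Cd200r3* (0.32). *Tspan18* had 8.66 and 8.80 against 4.67 and 5.00. With 4 arrays these distances are a description.

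*Tcf7l2*, a further Tcf/Lef factor, was lower in SOX7::GFP high cells but by far less than *Lef1*. It had 7.06 and 6.62 on the SOX7::GFP high arrays and 8.25 and 8.08 on the SOX7::GFP low arrays. The groups were apart by more than the arrays of either group differed. The log2 fold change was -1.33 (standard error 0.20, 95% interval -1.85 to -0.80, adjusted p = 0.0260 from limma). Of its 31 probe sets 27 passed the filter. In SOX7::GFP high cells 26 of the 27 were lower and 8 were called lower, beside 1.77% of all probe sets. The differences over the 27 ran from -2.79 to 0.59. The call rests on all 4 arrays. Its log2 fold change moved to -1.54 without SOX7::GFP high replicate 1 (adjusted p = 0.0649 from limma) and -1.11 without SOX7::GFP high replicate 2 (adjusted p = 0.107). Leaving out SOX7::GFP low replicate 1 gave -1.24 (adjusted p = 0.0993), and leaving out SOX7::GFP low replicate 2 gave -1.41 (adjusted p = 0.0848).

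For *Tcf7l1*, the fourth factor, which is known mostly as a repressor, no value can be given. The array annotation holds the names *Tcf3* and *Tcfe2a*. *Tcf3* is an older name of *Tcf7l1* and also the current symbol of the gene for the E-box protein E2A, whose older name is *Tcfe2a*, and the sources used here do not settle which gene the probe sets named *Tcf3* measure. Those probe sets, 14 of 17 passing, gave 5.50 and 5.66 in SOX7::GFP high cells against 6.34 and 5.996 in SOX7::GFP low cells. Their difference of -0.59 on the log2 scale was not called (limma, adjusted p = 0.135). The 25 probe sets named *Tcfe2a* gave 8.07 and 8.21 against 9.31 and 8.71, a difference of -0.87 (limma, adjusted p = 0.106). Neither name was called.

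Among the feedback genes, *Axin2*, a scaffold of the destruction complex and a widely used target gene of the pathway, was higher in SOX7::GFP high cells. It had 5.94 and 5.99 on the SOX7::GFP high arrays and 4.82 and 4.34 on the SOX7::GFP low arrays. The high arrays were alike, and both low arrays lay under the filter value of 5.04, so that background limits the size of the change. For *Axin2* this was a log2 fold change of 1.38 (standard error 0.20, 95% interval 0.86 to 1.91, adjusted p = 0.0239 from limma). Of 16 probe sets 8 passed, 4 of them only through the SOX7::GFP high arrays. All 8 were higher there, by 0.39 to 2.90, a direction that the filter fixes for those 4. Of the 8, 2 were called higher, beside 2.25% of all probe sets. The call depends on these dim probe sets. With a filter of 6 in place of 5.04 the log2 fold change was 0.60 (adjusted p = 0.0681 from limma), and with the filter set on the mean over the 4 arrays it was 0.85, under the minimum of 2-fold. It was also lost without SOX7::GFP high replicate 1 (1.41, adjusted p = 0.121), SOX7::GFP high replicate 2 (1.36, adjusted p = 0.133) and SOX7::GFP low replicate 2 (1.15, adjusted p = 0.0671).

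*Lgr5*, whose product binds R-spondins and marks stem cells of the gut, was lower in SOX7::GFP high cells. It had 4.35 and 4.39 on the SOX7::GFP high arrays and 6.18 and 6.43 on the SOX7::GFP low arrays. The high arrays lay under the filter value, so the fall is measured against background. Between the groups *Lgr5* differed by a log2 fold change of -1.94 (standard error 0.16, 95% interval -2.34 to -1.53, adjusted p = 0.00643 from limma). Of 32 probe sets 21 passed the filter, 13 of them only through the SOX7::GFP low arrays, which fixes the direction of those 13. Of the 21, 9 were called lower, beside 1.77% of all probe sets, with differences over the 21 of -4.47 to 0.82. The size of the fall depends on the dim probe sets. With a filter of 6 the log2 fold change was -1.24 (adjusted p = 0.00977 from limma), and with the filter set on the mean over the 4 arrays it was -1.05 (adjusted p = 0.0174), and the gene was called lower under both. Over all 32 probe sets, with no filter, *Lgr5* had 3.87 and 4.01 against 5.42 and 5.64. The call was lost without SOX7::GFP high replicate 1 (-1.92, adjusted p = 0.0571 from limma) and without SOX7::GFP high replicate 2 (-1.96, adjusted p = 0.0515).

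*Axin2* and *Lgr5*, both target genes of the pathway elsewhere, thus went in opposite directions in these cells. The other 3 feedback genes were not called. *Znrf3*, which encodes a ubiquitin ligase that removes Frizzled receptors from the surface, had 6.18 and 5.96 in SOX7::GFP high cells against 5.50 and 5.91 in SOX7::GFP low cells. The gap between the groups was smaller than the difference between the SOX7::GFP low arrays. This was a log2 fold change of 0.36 (95% interval -0.16 to 0.88, adjusted p = 0.360 from limma). *Rnf43*, the ligase related to *Znrf3*, had 6.64 and 6.57 against 6.75 and 6.79, or -0.16 as log2 fold change (95% interval -0.51 to 0.19, limma adjusted p = 0.544) over 7 of 27 probe sets.

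*Nkd1*, whose product binds Dishevelled, had 6.70 and 6.45 in SOX7::GFP high cells and 6.82 and 6.42 in SOX7::GFP low cells. It was the only one of the 9 genes whose groups overlapped. Their log2 fold change was -0.04 (95% interval -0.57 to 0.49, adjusted p = 0.930 from limma), measured over 5 of 11 probe sets. The intervals of *Rnf43*, *Nkd1* and *Znrf3* lie within 1 log2 unit of 0, so that a 2-fold change of their measured level in either direction is outside them.

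*Ctnnb1* itself had 9.54 and 9.63 in SOX7::GFP high cells against 8.84 and 8.96 in SOX7::GFP low cells. The arrays of each group were alike and the groups did not overlap. The log2 fold change of 0.68 (standard error 0.14, 95% interval 0.31 to 1.05) missed both thresholds (adjusted p = 0.0555 from limma), with 18 of its 19 probe sets higher in SOX7::GFP high cells. RNA of *Ctnnb1* does not measure the β-catenin that the pathway stabilizes, which is set at the level of the protein.

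Ordered by log2 fold change, from the lowest to the highest, the genes were *Lef1*, *Lgr5*, *Tcf7l2*, *Rnf43*, *Nkd1*, *Znrf3*, *Ctnnb1*, *Axin2* and *Tcf7*. The 95% intervals of neighbours in this order overlapped, apart from those of *Lef1* and *Lgr5*, of *Tcf7l2* and *Rnf43*, and of *Axin2* and *Tcf7*. *Tcf7* and *Lef1* therefore stood at either end, each clear of its neighbour.

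**Figure D3:**
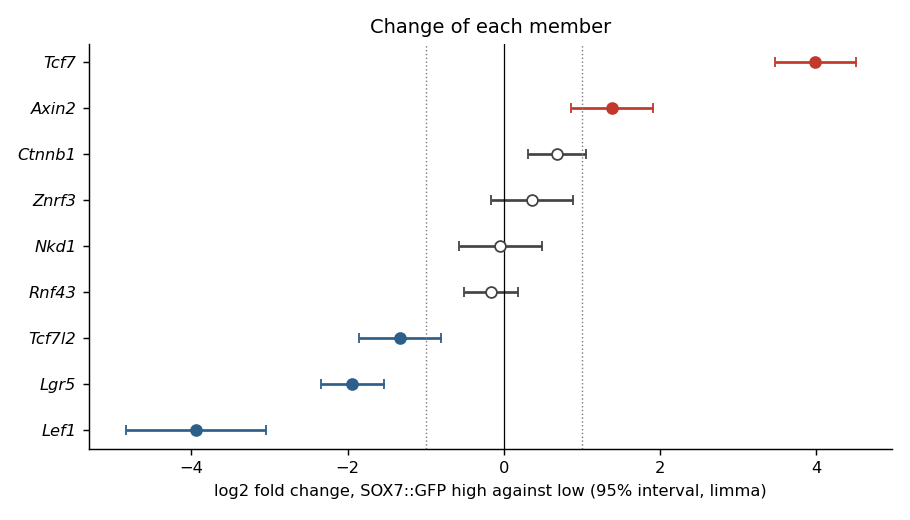
Log2 fold change of each gene, SOX7::GFP high against low, with its 95% interval from limma (2 arrays a group). Filled red and blue points were called higher and lower, open points were not called, and the dotted lines mark a 2-fold change. *Tcf7* at 3.99 and *Lef1* at -3.94 lie apart from the other 7 genes.

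Other genes of the pathway were read from the same fit, grouped by role. Of 100 listed, 97 were measured, and 1 was called higher and 2 lower (3.09%, beside 6.89% of all genes). The log2 fold changes of 91 of the 97 lay within 1 of 0 (93.8%, beside 91.1% of all genes). The median was 0.05, as over all genes.

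None of 23 measured Wnt ligands, R-spondins and ligand-processing genes was called (0 of 23). The widest differences were those of *Rspo4*, with 4.80 and 4.74 against 6.29 and 5.25 over 1 probe set (adjusted p = 0.190 from limma), and of *Wnt5b* (log2 fold change -0.78, adjusted p = 0.115). *Wnt1* and *Wnt8b* had no probe set over the filter. None of 18 receptors and co-receptors was called (0 of 18), with the widest values for the Frizzled genes *Fzd9* (-1.20, 1 probe set, adjusted p = 0.281) and *Fzd3* (-0.86, adjusted p = 0.0858). The co-receptor gene *Lrp5* passed the adjusted p but not 2-fold. It had 7.63 and 7.65 in SOX7::GFP high cells against 6.83 and 6.74 on the SOX7::GFP low arrays, 0.86 as log2 fold change (limma, adjusted p = 0.0294). These counts of 0 depend on the filter. With a filter of 6, *Wnt5b* was called lower (log2 fold change -1.08, adjusted p = 0.0292 from limma), and among the receptors *Fzd1* (2.25, adjusted p = 0.00256) and *Fzd7* (1.08, adjusted p = 0.0122) were called higher.

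None of 14 secreted inhibitors was called (0 of 14). *Dkk2* had the widest value, 5.98 and 6.26 against 5.09 and 3.32, a log2 fold change of 1.91 that rests on 1 probe set and did not pass (adjusted p = 0.141 from limma). *Sfrp1* followed with -0.98 (adjusted p = 0.05001). None of 17 genes of Dishevelled and the destruction complex was called (0 of 17), and their log2 fold changes ran from -0.54 for *Btrc* to 0.65 for the casein kinase gene *Csnk1e*.

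Of 16 nuclear partners of the Tcf/Lef factors, 1 was called higher and 1 lower. *Tle6*, a member of the Groucho/TLE family, had 6.28 and 6.75 in SOX7::GFP high cells against 5.31 and 4.99 on the SOX7::GFP low arrays, 1.36 as log2 fold change (limma, adjusted p = 0.0330). *Smarca4*, the ATPase of the BAF chromatin remodelling complex, had 8.75 and 8.63 against 10.49 and 10.0, or -1.56 (adjusted p = 0.0192), over 40 of 40 probe sets. Of the 15 *Tle6* probe sets that passed the filter, 7 passed only through the SOX7::GFP high arrays, where it is higher. With no filter the difference of *Tle6* was 0.995 (adjusted p = 0.0285 from limma), under 2-fold and no longer called. The family members *Tle1* to *Tle5* were not called, with log2 fold changes from -0.27 for *Tle4* to 0.83 for *Tle1* (adjusted p = 0.0647 from limma).

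Of 9 measured further target genes of the pathway, 1 was called lower. *Tnfrsf19*, a receptor of the TNF family, had 4.33 and 4.85 in SOX7::GFP high cells against 6.88 and 7.27 on the SOX7::GFP low arrays, -2.48 as log2 fold change (limma, adjusted p = 0.00987). It lay under the filter value in SOX7::GFP high cells, as *Lgr5* did. Of its 12 probe sets that passed the filter, 7 passed only through the SOX7::GFP low arrays, where it is higher. With no filter it was still called lower. *Myc* had 9.58 and 9.69 against 10.5 and 10.4, a log2 fold change of -0.85 that passed the adjusted p (0.0345 from limma) but not 2-fold. *Ccnd1*, *Cd44*, *Sp5*, *Bambi*, *Sox4*, *Nrcam* and *Ephb2* were not called.

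The calls in these lists were less stable than those of *Tcf7* and *Lef1*. *Tle6* lost its call without each array in turn (adjusted p = 0.0728 to 0.132 from limma). *Smarca4* lost it without SOX7::GFP high replicate 1 (-1.62, adjusted p = 0.0989), SOX7::GFP high replicate 2 (-1.50, adjusted p = 0.118) and SOX7::GFP low replicate 1 (-1.31, adjusted p = 0.0517). *Tnfrsf19* lost it without SOX7::GFP high replicate 1 alone (-2.22, adjusted p = 0.0575).

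**Figure D4:**
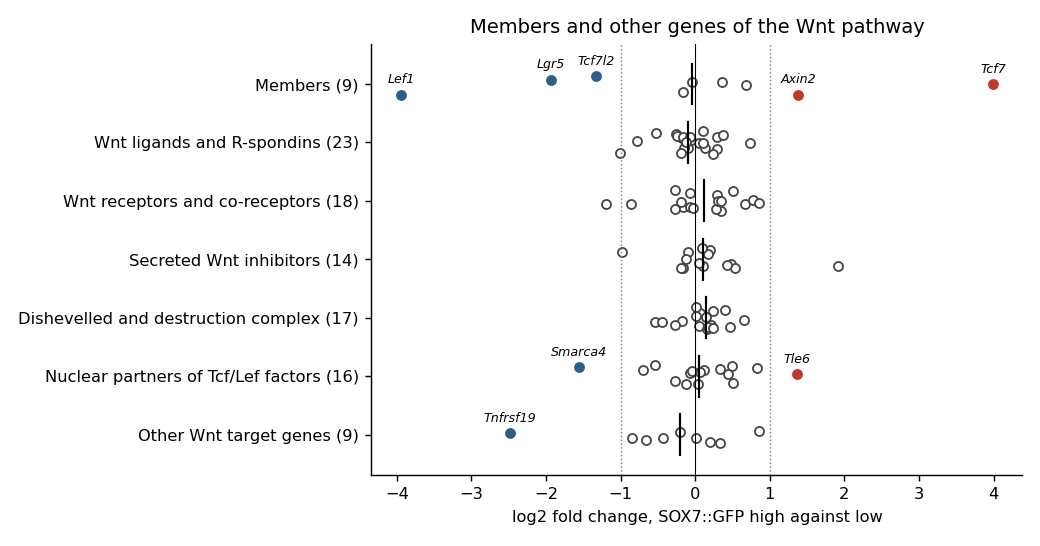
Log2 fold change, SOX7::GFP high against low, of the 9 Tcf/Lef, feedback and *Ctnnb1* genes (first row) and of 97 other measured genes of the Wnt pathway by role, with the number measured in brackets. Each point is a gene, named and filled where it was called, a bar is the median of a row, and the dotted lines mark a 2-fold change. Outside the first row, *Tle6*, *Smarca4* and *Tnfrsf19* are the called genes.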

How the data were processed

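RNA of 2 SOX7::GFP high and 2 SOX7::GFP low samples was measured on Affymetrix mouse exon arrays. The table the authors deposited holds 1236087 probe sets as log2 values, background-adjusted and normalized with robust multi-array averaging (RMA; its version is not given in the sources used here). The detection filter of the methods was not applied to that table. They lie between 0.55 and 14.4, and array medians between 3.90 and 3.91. The number of arrays limits the precision.

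The platform annotation gives 1 symbol for 321091 probe sets, several for 7796 and none for 907200. Of 22378 gene names 18054 are current in GRCm38.p6 and 4024 older ones were updated. Probe sets whose second-highest value was 5.04 or more (191615) were averaged per gene, and limma 3.58.1 in R 4.3.3 compared the groups with no covariate, after a test on simulated data. Benjamini-Hochberg adjustment ran over all genes, or over all probe sets. Named genes are the 10 listed, every called pathway gene or the 2 widest of a list without one, up to 3 of each marker list, and the 5 genes nearest to *Lef1* and to *Tcf7*. Further genes were named after their values were seen. The members and lists were chosen with earlier results of these data known. The alternatives are given in the closing section. Promoter sequences are from RefSeq, GRCm38.p6, which matched 8 of the 10 genes.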

Additional observations from a re-analysis of the deposited data

How the results depend on the processing

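*Tcf7* and *Lef1* kept their direction and call under 13 of 14 alternatives each, with log2 fold changes of 3.76 to 4.22 and of -4.44 to -3.45 when 1 array was left out. The exception was the methods' t-test on the same values. After Benjamini-Hochberg adjustment it called 0 genes, 0 of the 9 listed genes, 0 other pathway genes and 0 *Tcf7* or *Lef1* probe sets, with 3520 genes at an unadjusted p under 0.05 (4505 in limma). The log2 fold changes stayed at 3.99 for *Tcf7* (adjusted p = 0.157) and -3.94 for *Lef1* (adjusted p = 0.192), each estimated from its own 4 arrays alone. With 1 array left out, limma called 278 to 757 genes, 2 to 4 of the listed genes, 0 to 3 pathway genes and 0 to 22 *Tcf7* and *Lef1* probe sets. A lone array was then assumed to vary like the other group. The other pathway genes called numbered 6 with a filter of 6 (with *Fzd1*, *Fzd7* and *Wnt5b* added), 5 with no minimum fold, and 2 or 3 under the remaining alternatives with all 4 arrays in limma. With no filter on probe sets 0 of the *Tcf7* and *Lef1* probe sets were called, against 37, and 0 of all 321091 probe sets (43409 at an unadjusted p under 0.05). The cause was not tested. *Nkd1* changed sign with the median of probe sets (0.0546), and ran from -0.25 to 0.16 with 1 array left out. *Axin2* also lost its call with the median of probe sets (1.19, adjusted p = 0.0601).

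Replicate numbers are shared between groups, but no label ties them to a batch. The differences between replicates 1 and 2 correlated between groups at 0.104, over 2 pairs. The fit with a replicate block called 1339 genes (700 higher, 639 lower), the same 5 of the listed genes and 2 pathway genes, *Tle6* being lost. Signal over background limits *Axin2* in SOX7::GFP low cells, *Lgr5* in SOX7::GFP high cells, and *Rnf43* and *Nkd1* in both.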
